A study of Mus musculus with 24 samples.

Results

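The presynaptic vesicle and release machinery was followed as 30 named genes, found by exact symbol among the 19661 genes of the expression table. They are 3 synapsins, 2 synaptophysins, 5 calcium sensors, 4 SNARE proteins, 2 Rab3 GTPases, 7 active zone proteins, 2 complexins, 2 vesicular glutamate transporters and 3 SV2 proteins. The genes were listed by function, with earlier results of these data known. All 30 genes were present and all 30 passed the filter on low values, which kept 12399 genes. No member passed the test for training, for genotype or for their interaction.

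A nerve terminal stores neurotransmitter in small vesicles, which synapsins tether to actin and to each other. At the active zone, RIM and Munc13 proteins dock and prime the vesicles, and a bundle of SNARE proteins on the vesicle and plasma membranes brings the membranes together. Calcium binding to synaptotagmin then triggers fusion, with complexin holding or releasing the SNARE bundle. In the hippocampus most of these terminals release glutamate, which is loaded into vesicles by VGLUT1, and the strength of release is one of the properties that changes with synaptic plasticity.

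The study measured RNA from the dorsal hippocampus of both sides in 24 mice, 1 library per animal, in 4 groups of 6. The groups were wild-type mice from the home cage, wild-type mice killed 30 minutes after training in object location memory, and heterozygous Baf53b+/- mice in the same conditions. Baf53b is the protein name for Actl6b, a subunit of the neuronal BAF complex, which remodels chromatin. The wild-type strain is given as C57BL/6J and that of the heterozygotes as B6J.129S6-Actl6b<tm1Grc>, an allele made by gene targeting, so strain background and genotype cannot be told apart. The allele is present in every cell of the heterozygotes, all 4 groups share the dissection and library kit, and age is not given in the labels. Home cage animals are the only controls, so training cannot be told apart from handling or exposure to the arena. In RNA from whole tissue, fewer cells of a type and less RNA per cell cannot be told apart either.

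The labels held for the targeted gene: Actl6b ran from 46.4 to 54.4 RPKM (reads scaled to gene length and library size) in the 12 wild-type animals and from 27.3 to 32.4 RPKM in the 12 heterozygotes, with no overlap. Egr1, an activity-induced gene, had a mean of 45.1 ± 3.8 RPKM (SD, n = 6) in the wild-type home cage group and 105 ± 9.6 after training. In heterozygotes these means were 42.5 ± 4.5 and 102 ± 7.9 RPKM (SD, n = 6). Depth estimated from the RPKM steps of 925 single-exon genes was 28.4 to 46.8 M reads per library, with a median of 34.4 M. In 7 libraries, spread over all 4 groups, there was more than 5 times the median summed level of 10 choroid plexus markers. Their choroid sums were 311 to 4738 RPKM, against 41.1 RPKM for the median of all 24 libraries. Heterozygous home cage animal 2415 stood apart in another way, with the lowest summed level of 10 dentate gyrus markers (94.4 RPKM, next lowest 126 RPKM) and the highest of 6 CA1 markers (258 RPKM). The values that moved most without animal 2415 are given with and without it beside the results. The Y-linked gene Ddx3y was above 1 RPKM in 3, 3, 5 and 3 animals of the wild-type home cage, wild-type trained, heterozygous home cage and heterozygous trained groups.

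RefSeq promoters on GRCm38.p6 were at hand for 23 of the 30 genes, and not for Syn3, Syt7, Doc2a, Doc2b, Snap25, Vamp2 and Rims2. They are shown because Egr1, which encodes a factor that binds the Egr site, was higher after training without overlap in both genotypes (95.1 to 123 against 40.5 to 51.5 RPKM in wild type, 85.7 to 107 against 36.8 to 49.1 RPKM in heterozygotes), and because the promoter of Syn1 is the textbook example of a neuronal promoter. The 250 bases before each start were searched on both strands for a full cAMP response element (CRE, TGACGTCA), its shorter core (TGACG, which the full element also contains), an Egr site (GCGGGGGCG or GCGTGGGCG) and TTCAGCACC, a part of the RE1 element that the neuronal repressor REST binds. Capitals mark the full CRE, the RE1 part and the Egr sites only, which lie in the strand of the gene for Syn1 and Syn2 and in the opposite strand for Unc13a. The stretch of Unc13a also holds 2 matches of the TGACG core on the other strand, 44 to 40 and 11 to 7 bases before the start, which are left in lower case.
Syn1, GRCm38.p6 chrX:20921039-20921158, minus strand, with the RE1 part and then the CRE: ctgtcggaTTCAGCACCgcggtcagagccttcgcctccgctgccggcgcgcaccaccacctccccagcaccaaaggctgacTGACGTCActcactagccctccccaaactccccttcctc
Syn2, GRCm38.p6 chr6:115134836-115134895, plus strand, with the Egr site: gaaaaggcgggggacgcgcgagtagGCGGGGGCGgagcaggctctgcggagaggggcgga
Unc13a, GRCm38.p6 chr8:71671758-71671807, minus strand, with the Egr site read on the other strand: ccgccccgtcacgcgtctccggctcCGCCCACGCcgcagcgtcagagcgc
The full CRE was found in 1 of 23 members (Syn1) and in 1.77% of 27025 genes. The TGACG core was found in 8 of 23 (Syn1, Sypl, Syt2, Stx1a, Rab3a, Rab3b, Unc13a and Slc17a6), against 19.8% of all genes. The Egr site was found in 2 of 23 (Syn2 and Unc13a), against 3.47%, and the RE1 part in 1 of 23 (Syn1), against 0.348%. These matches describe letters in the windows searched and not binding, which was not measured.

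Because RPKM is per length, levels can be set side by side between genes. The 30 genes together made up 1.66% to 1.98% of the summed RPKM of a library. Snap25 had the highest mean, 1194 RPKM, the fifth highest of the table (rank 5), and 7 members were among the 100 genes with the highest mean (Snap25, Vamp2, Syp, Slc17a7, Cplx2, Rab3a and Syt1). At the other end, Sv2c, Slc17a6, Syt2 and Unc13b had means of 4.04, 4.13, 4.17 and 4.91 RPKM. A gene of 2 kb at 4 RPKM would have at least 227 reads in the shallowest library, a counting error of 6.64%. The lengths of the members were not used. The lowest values in single animals were 1.75 RPKM for Slc17a6, 2.02 for Sv2c and 2.80 for Syt2.

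**Figure D1:**
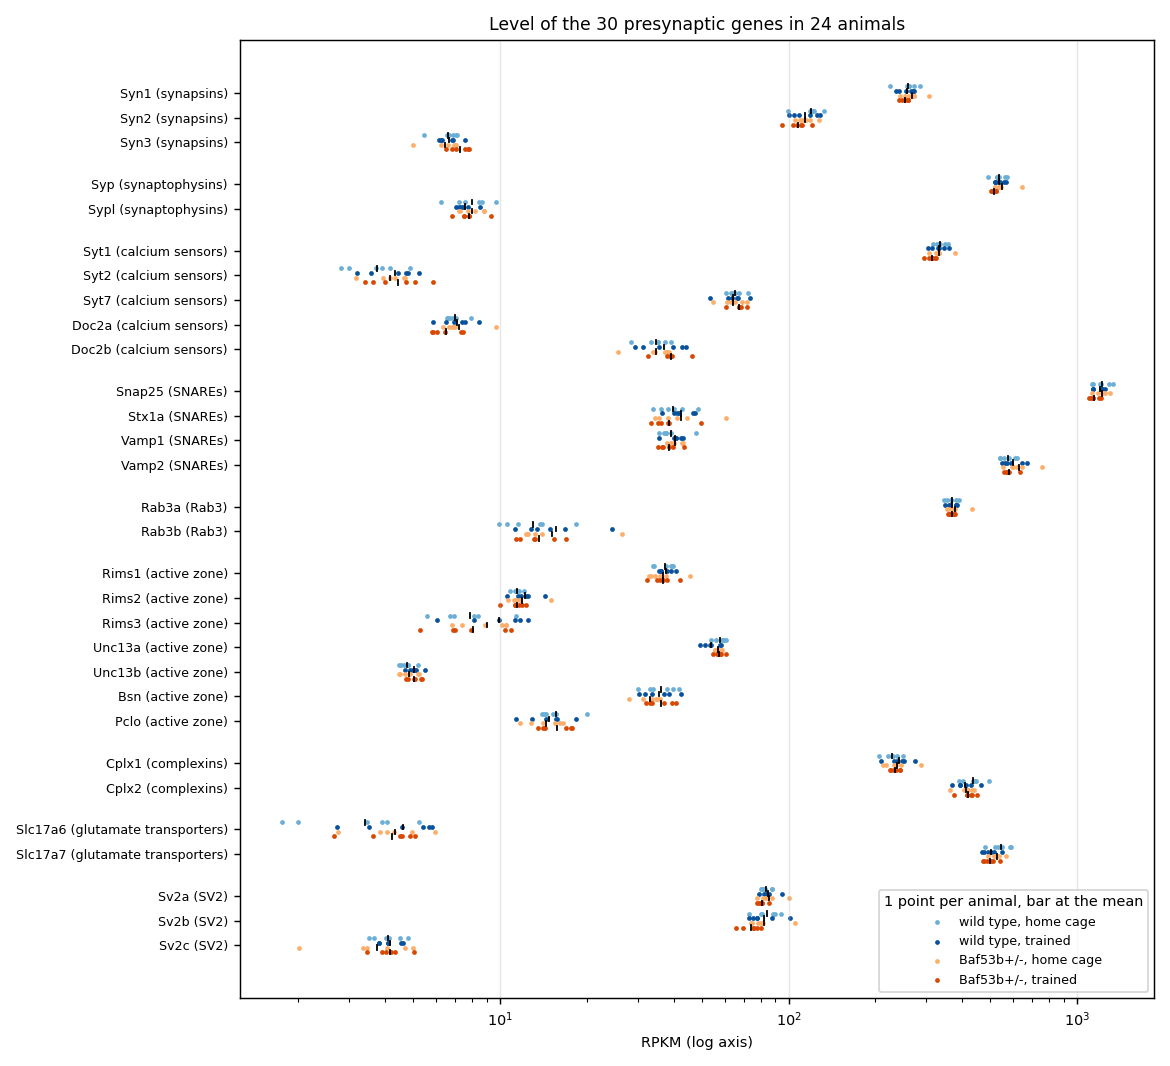
RPKM (log axis) of the 30 genes, 1 point per animal, with a bar at the mean of each group of 6, ordered by role. Levels span from Sv2c (mean 4.04 RPKM) to Snap25 (1194 RPKM), and the ranges of the groups compared overlap in every gene.

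The synapsins coat the vesicle and hold the reserve pool. Syn1 (mm9 chromosome X, 20437648 to 20498044) ran from 225 to 286 RPKM (median 261) in wild-type home cage animals and from 235 to 272 (median 261) after training. In heterozygotes it ran from 243 to 306 (median 266) in the home cage and from 242 to 260 (median 256) after training, so the 4 groups overlapped. Syn2 had group means of 119, 114, 114 and 108 RPKM in the order wild-type home cage, wild-type trained, heterozygous home cage and heterozygous trained. Syn3, the synapsin best known from immature neurons, was the rare member at group means of 6.61, 6.64, 6.47 and 7.24 RPKM. Syn1 made up 68.3% of the synapsin RPKM on average (66.5% to 70.4% over the 24 animals) and Syn3 1.78%. Syp, which encodes the abundant vesicle protein synaptophysin, ran from 492 to 570 RPKM in the wild-type home cage group and from 504 to 524 in trained heterozygotes. Its wider relative Sypl, found in many tissues, was at 6.25 to 9.72 RPKM over all animals and made up 1.45% of the pair.

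Among the calcium sensors, Syt1, the trigger of fast synchronous release, had group means of 336, 331, 333 and 313 RPKM and made up 74.4% of the 5 sensors' RPKM. Syt7, a slower sensor of asynchronous release and facilitation, followed at 65.5, 64.2, 64.0 and 67.1 RPKM. Doc2b, a sensor of high calcium affinity linked to spontaneous release, was at 34.7, 37.1, 34.6 and 39.1 RPKM. Doc2a was lower at 6.96, 7.10, 7.23 and 6.48 RPKM. Syt2, the fast sensor of hindbrain and of fast-spiking inhibitory terminals, was at 3.74, 4.33, 4.16 and 4.44 RPKM, and Syt1 exceeded it 81.5 ± 17 times (SD, n = 24).

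Of the SNARE proteins, Snap25 (mm9 chromosome 2, 136539186 to 136608164) ran from 1127 to 1331 RPKM (median 1204) in wild-type home cage animals and from 1133 to 1247 (median 1219) after training. In heterozygotes it ran from 1130 to 1302 (median 1225) in the home cage and from 1096 to 1211 (median 1133) after training. The trained heterozygotes thus lay lowest while overlapping every other group. Vamp2, the vesicle SNARE of most forebrain terminals, had group means of 576, 598, 628 and 582 RPKM. Vamp1, its counterpart in brainstem and in some inhibitory cells, was at 39.0, 40.5, 40.4 and 38.4 RPKM, and Vamp2 exceeded it 15.1 ± 1.5 times (SD, n = 24). Stx1a, a plasma membrane SNARE, was at 39.9, 42.3, 42.5 and 38.5 RPKM.

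Rab3a, the main vesicle GTPase that recruits RIM, was among the steadiest members at group means of 367, 369, 376 and 368 RPKM. Rab3b (mm9 chromosome 4, 108551675 to 108615929) was rarer and far more variable. It ran from 9.93 to 18.3 RPKM (median 12.7) in wild-type home cage animals, from 11.2 to 24.4 (median 14.2) after training, from 12.3 to 26.4 (median 12.8) in heterozygous home cage animals and from 11.3 to 16.9 (median 13.2) in trained heterozygotes. Its highest values were in single animals and not in a group: 26.4 RPKM in animal 2415 and 24.4 in wild-type trained animal 2421.

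In the active zone, Unc13a, which encodes the priming factor Munc13-1, was the leading gene at 33.5% of the 7 genes' RPKM. The large scaffolds followed: Rims1 at group means of 37.4, 37.6, 36.6 and 36.7 RPKM, Bsn (bassoon) at 36.1, 35.6, 33.1 and 36.0 RPKM, and Pclo (piccolo) at 15.6, 14.7, 14.4 and 15.7 RPKM. Rims2 was at 11.4, 12.2, 11.9 and 11.4 RPKM. Rims3, which encodes a short RIM, ran from 5.60 to 11.4 RPKM in wild-type home cage animals, from 6.06 to 12.5 after training, from 6.83 to 10.5 in heterozygous home cage animals and from 5.29 to 10.9 in trained heterozygotes. Unc13b, which encodes Munc13-2, was at 4.74, 5.03, 4.82 and 5.04 RPKM, and Unc13a exceeded it 11.6 ± 1.1 times (SD, n = 24).

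The complexins clamp and assist the SNARE bundle. Cplx2 had group means of 435, 410, 413 and 419 RPKM and Cplx1 of 229, 242, 238 and 234 RPKM, a ratio of 1.79 ± 0.20 (SD, n = 24). Of the glutamate transporters, Slc17a7, which encodes VGLUT1, made up 99.2% of the pair. Slc17a6, which encodes VGLUT2 and is typical of thalamus and other subcortical regions, made up 0.803%. Sv2a and Sv2b, vesicle membrane glycoproteins of which SV2A binds the drug levetiracetam, were nearly level at ratios of 0.931 to 1.24. Sv2a had group means of 83.5, 84.9, 85.8 and 80.8 RPKM and Sv2b of 84.3, 82.2, 82.4 and 74.1 RPKM. Sv2c, typical of basal ganglia, was at 4.10, 4.15, 3.76 and 4.16 RPKM and made up 2.42% of the 3.

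**Figure D2:**
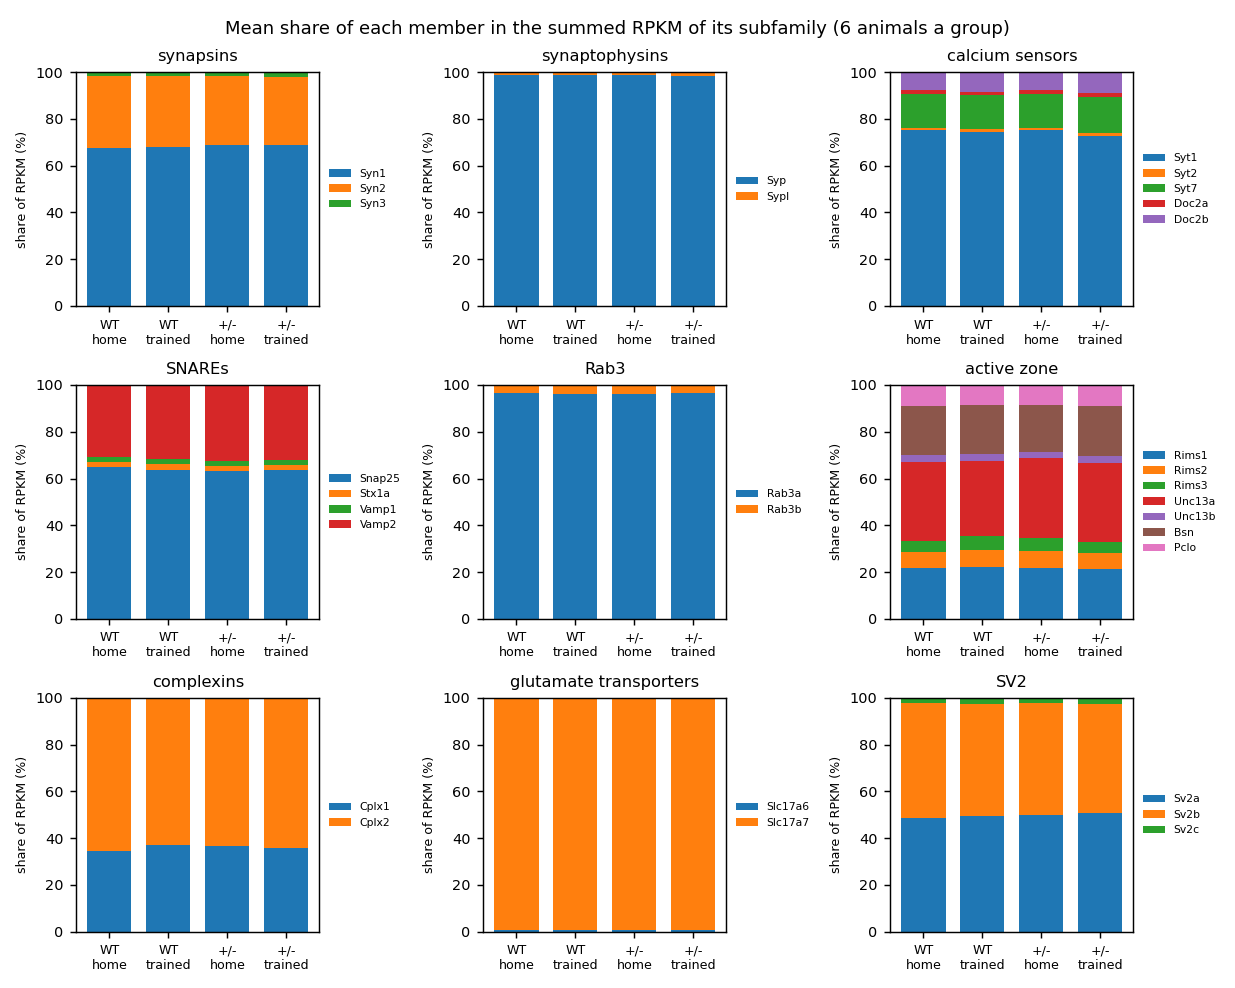
Mean share (percent, axis from 0) of each member in the summed RPKM of its subfamily, in 4 groups of 6 animals (WT, wild type; +/-, Baf53b+/-). The leading gene of each subfamily was the same in every group except in SV2, where Sv2a and Sv2b were near equal.

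The first question of the design is whether training moved these genes in wild-type animals. It was tested with limma on log2(RPKM + 0.5), with Benjamini-Hochberg adjustment over all genes tested and an adjusted p under 0.05. None of the 30 passed (0 of 30), against 1.08% of all genes tested, and no member's trained and home cage ranges were apart, against 1.24% of all genes. At an unadjusted p under 0.05 by limma there were 2 of 30 members, against 11.1% of all genes. The median difference of the members was 0.0087 (log2) and that of all genes tested 0.011.

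Those 2 members were Unc13a and Slc17a7. Unc13a (mm9 chromosome 8, 74150612 to 74195656) ran from 54.0 to 60.7 RPKM (median 59.1) in wild-type home cage animals and from 49.2 to 58.2 (median 53.7) after training, and the ranges overlapped. The difference was -0.11 ± 0.038 (log2, SE), 0.929-fold, with an adjusted p of 0.226. Slc17a7 (mm9 chromosome 7, 52419291 to 52431509) ran from 480 to 591 RPKM (median 541) in the home cage and from 468 to 548 (median 499) after training. Its difference was -0.11 ± 0.048 (log2, SE), 0.924-fold, with a limma adjusted p of 0.362. The largest difference of any member was that of Slc17a6, from a mean of 3.40 ± 1.3 to 4.62 ± 1.3 RPKM (SD, n = 6), or 0.43 ± 0.22 (log2, SE). Its limma adjusted p was 0.492 and its 95% interval reached from -0.031 to 0.88.

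In heterozygotes, training again moved 0 of 30 members past the limma threshold, against 1.03% of all genes, and 0 of 30 had ranges apart, against 1.33%. At an unadjusted p under 0.05 there were 3 of 30, against 11.0% of all genes: Syn3, Snap25 and Syp. The median difference of the members was -0.044 (log2) and that of all genes tested -0.0014, with 19 of 30 members below 0. Without animal 2415 the median of the members was -0.014, with 14 of 30 above 0, and 0 of 30 had an unadjusted p under 0.05 by limma. The share of all genes at that level was not counted without this animal.

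Syn3 ran from 5.001 to 7.05 RPKM (median 6.77) in heterozygous home cage animals and from 6.51 to 7.83 (median 7.28) after training, a difference of 0.16 ± 0.072 (log2, SE) with a limma adjusted p of 0.427. Without animal 2415, which held the lowest home cage value, it was 0.091 ± 0.062 (limma adjusted p = 0.781). Syp ran from 518 to 646 RPKM (median 536) in the home cage and from 504 to 524 (median 516) after training, a difference of -0.092 ± 0.044 (log2, SE; limma adjusted p = 0.45). Animal 2415 held the highest home cage value of Syp, and without it the difference was -0.044 ± 0.033. For Snap25 the difference was -0.086 ± 0.041 (log2, SE; limma adjusted p = 0.45), and -0.067 ± 0.042 without animal 2415. Summed dentate markers ran from 94.4 to 187 RPKM in heterozygous home cage animals and from 149 to 206 RPKM after training. With that sum as a covariate, an alternative added after the data were seen, the Syn3 difference was 0.089 (limma adjusted p = 0.616).

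Training averaged over genotypes rests on all 24 animals. No member passed (0 of 30), against 4.17% of all genes, and 2 of 30 had an unadjusted p under 0.05 by limma, against 16.8%. Slc17a7 was nearest the threshold, at -0.096 ± 0.034 (log2, SE), 0.935-fold, with an adjusted p of 0.124. It was lower in the trained group mean of both genotypes, 543 to 501 RPKM in wild type and 527 to 499 RPKM in heterozygotes. The summed level of 6 CA3 markers was lower too, with medians of 149 and 137 RPKM in wild type and 138 and 132 RPKM in heterozygotes, home cage and trained. Across the 24 animals Slc17a7 had an r of 0.59 and a rho of 0.53 with that sum (adjusted permutation p = 0.01 and 0.0587 over 120 relations). Its r was 0.41 without the 2 farthest animals and 0.40 within groups, and the part of the CA3 sum in the training difference was not tested. Leaving out wild-type home cage animal 2425, a choroid-rich library and the lowest of its group for Slc17a7 at 480 RPKM, gave -0.11 ± 0.031 and a limma adjusted p of 0.041, the 1 setting in which any member passed. Unc13b was the other, at 0.068 ± 0.032 (log2, SE; limma adjusted p = 0.279).

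**Figure D3:**
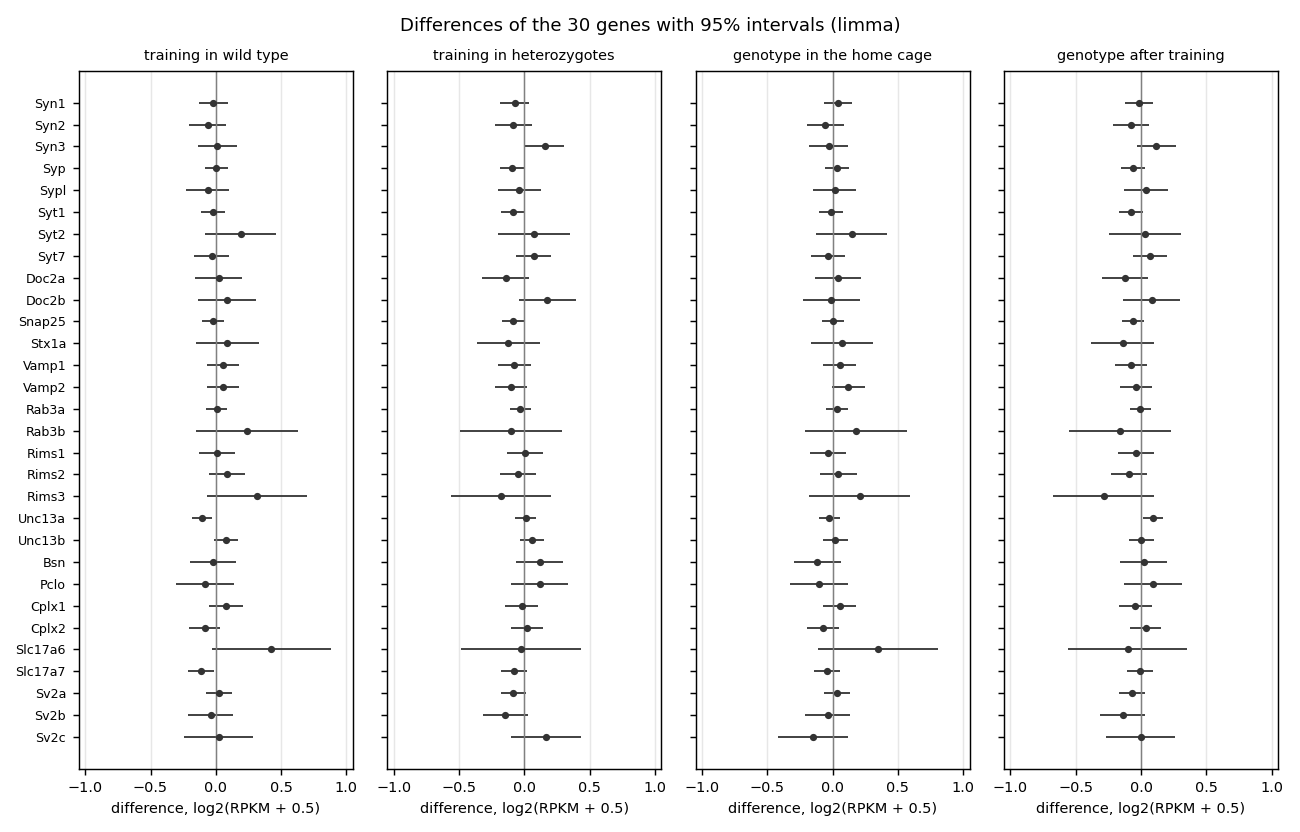
Differences of the 30 genes on the log2(RPKM + 0.5) scale (points) with 95% intervals (lines) from limma, 6 animals against 6, in 4 comparisons. The widest intervals belong to Slc17a6, Rab3b and Rims3, and none of the 30 genes passed the adjusted threshold in any panel.

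The next question is whether a reduced dose of BAF53b goes with other levels of the release machinery. In the home cage 0 of 30 members passed limma, against 0.00807% of all genes (1 gene), and 0 of 30 had ranges apart, against 0.0565%. At an unadjusted p under 0.05 there were 0 of 30, against 3.52%. The largest differences were those of the variable genes: Slc17a6 at 0.35 ± 0.22, Rims3 at 0.21 ± 0.19 and Rab3b at 0.18 ± 0.19 (log2, SE). Without animal 2415 the Rab3b difference was 0.011 ± 0.16. Vamp2 came nearest at 0.12 ± 0.060 (log2, SE; limma 95% interval -0.0023 to 0.24), with 542 to 619 RPKM in wild type and 556 to 754 RPKM in heterozygotes. Animal 2415 held that highest value, and without it the Vamp2 difference was 0.067 ± 0.052.

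After training, 0 of 30 members differed between genotypes by limma, against 0.00807% of all genes, and 0 of 30 had ranges apart, against 0.226%. At an unadjusted p under 0.05 there was 1 of 30, Unc13a, against 3.69% of all genes. Unc13a ran from 49.2 to 58.2 RPKM in trained wild type and from 54.8 to 60.7 RPKM in trained heterozygotes, 0.092 ± 0.038 (log2, SE; limma adjusted p = 0.993). Rims3 had the widest difference, -0.29 ± 0.19 (log2, SE), with a 95% interval from -0.67 to 0.098. Averaged over conditions, genotype moved 0 of 30 members past the limma threshold, against 0.0242% of all genes, and 0 of 30 had an unadjusted p under 0.05, against 4.49%. Without animal 2415 there were 2 of 30 at an unadjusted p under 0.05, Syt1 at -0.063 ± 0.028 and Sv2b at -0.13 ± 0.051 (log2, SE; limma adjusted p = 0.832 each). Their differences with all animals were -0.045 ± 0.031 and -0.090 ± 0.059. After training Syt1 was then the second member at that level, beside Unc13a, at -0.079 ± 0.038 (log2, SE; limma adjusted p = 0.968). Without animal 2415 the share of all genes at that level was not counted in either comparison.

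The interaction asks whether the response to training differed between genotypes. By limma it passed in 0 of 30 members and in 0% of all genes, and at an unadjusted p under 0.05 in 1 of 30, against 2.49%. That member was Unc13a, whose training difference was -0.11 in wild type and 0.010 in heterozygotes, an interaction of 0.12 ± 0.053 (log2, SE; limma adjusted p = 0.985). The training and genotype comparisons of Unc13a share the trained wild-type animals, so they are not separate results. The members with the widest interactions, Rims3 at -0.49 ± 0.26, Slc17a6 at -0.45 ± 0.31 and Rab3b at -0.34 ± 0.27 (log2, SE), were the 3 of widest spread. Without animal 2415 that of Rab3b was -0.17 ± 0.22.

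The intervals bound what could have been missed. In the home cage comparison of genotypes, the 95% interval lay within 1.2-fold either way for 22 of 30 members and within 1.5-fold for 28 of 30. For training in wild type these counts were 22 and 27, for training in heterozygotes 18 and 30, and for genotype after training 19 and 29. Of the 12399 genes tested, 10452 lay within 1.2-fold and 12108 within 1.5-fold in the home cage comparison of genotypes. These counts were 10085 and 12073 for training in wild type, 10122 and 12106 in heterozygotes, and 10483 and 12141 for genotype after training. Within 1.2-fold the share was smaller for the members than for all genes in each of these comparisons. For Snap25 in the home cage the genotype interval was 0.945-fold to 1.06-fold, while for Slc17a6 it was 0.926-fold to 1.75-fold.

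Relative use of related genes was also compared, as 11 ratios in 4 comparisons with exact permutation tests (two-sided) on the 924 splits of 12 animals. These tests were added after the values were seen. None of the 44 tests had an adjusted p under 0.05 and 2 had an unadjusted exact p under 0.05. The ratio of Syn1 to Syn2 ran from 2.11 to 2.26 in wild-type home cage animals and from 2.27 to 2.39 in heterozygous home cage animals, without overlap (1 of 44 tests). Ratios of other gene pairs were not computed, so the lack of overlap is not shown to be particular to this pair. Its exact permutation p was 0.00216, the smallest the splits allow, and its adjusted p over the 44 tests was 0.0952. After training the ratio ran from 2.11 to 2.45 in wild type and from 2.09 to 2.55 in heterozygotes, so the ranges overlapped there. The other was Unc13a to Unc13b for training in wild type, at 12.3 in the home cage and 10.7 after training (geometric means; exact permutation p = 0.0411, adjusted 0.589).

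Members differed in their spread between animals of a group. The SD within groups on the log2 scale had a median of 0.123 over the 30 members and 0.0922 over all genes tested. The steadiest were Unc13a at 0.064, Rab3a at 0.068 and Snap25 at 0.072. The most variable were Slc17a6 at 0.40, Rab3b at 0.34, Rims3 at 0.34, Syt2 at 0.24 and Sv2c at 0.24, all above the 90th percentile of the genes tested (0.193), as were Stx1a, Pclo and Doc2b. The highest animal exceeded the lowest 3.40 times for Slc17a6, 2.66 times for Rab3b and 1.21 times for Snap25. All these spreads include animal 2415. The SD of Rab3b in heterozygous home cage animals was 5.6 RPKM with it and 0.71 RPKM without it.

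**Figure D4:**
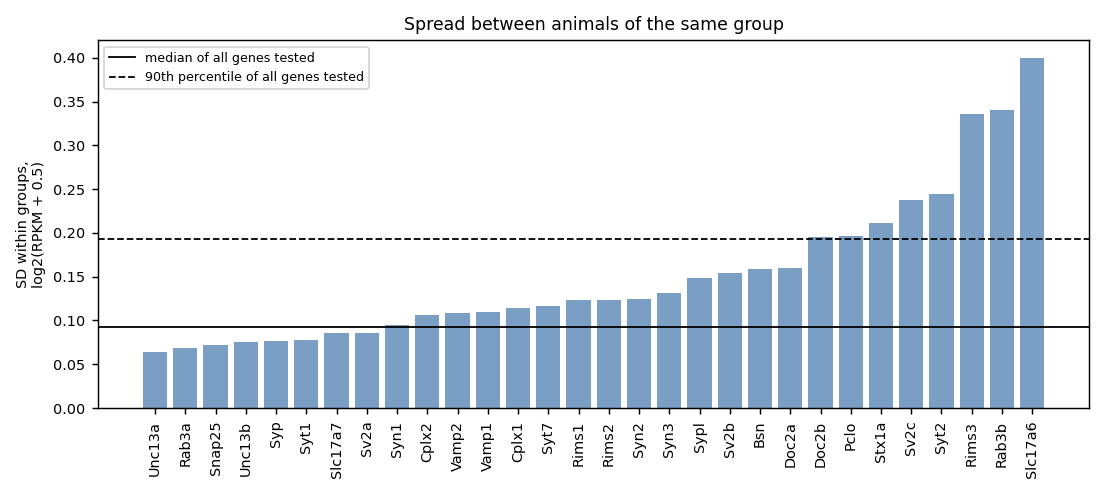
SD between animals of the same group (log2 of RPKM + 0.5, axis from 0) for each of the 30 genes, with the median (0.0922, solid line) and 90th percentile (0.193, dashed line) of all 12399 genes tested. The lowest bars are Unc13a (0.064), Rab3a (0.068) and Snap25 (0.072), and the highest are Rims3, Rab3b (0.34 each) and Slc17a6 (0.40).

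For 5 members known from other cell types or regions, levels were set against 4 marker lists across the 24 animals, 20 relations in all. By Pearson's r, 6 had a permutation p under 0.05 after Benjamini-Hochberg adjustment, and 4 of these also by Spearman's rho. By rho alone, Syt2 passed with the interneuron and dentate sums and Slc17a6 with the dentate sum. Their rho was 0.53, -0.53 and -0.52 (adjusted permutation p = 0.0283 each). Their r was 0.46, -0.43 and -0.35 (adjusted permutation p = 0.065, 0.084 and 0.144). Over the 17 libraries that were not choroid-rich, the adjusted permutation p of these rho values was 0.092, 0.19 and 0.2755. Rab3b against the dentate sum had an r of -0.87 and a rho of -0.53 (permutation p = 1e-05 for r, the smallest 100000 resamples can give, and 0.00794 for rho, adjusted 0.0002 and 0.0283). Without animals 2415 and 2421, the farthest from the median of the dentate sum, its r was -0.70 and its rho -0.39. Adjusted over 120 relations, their permutation p was then 0.0276 and 0.37. With animals 2416 and 2418, the next farthest, left out too, its r was -0.50. Within groups its r was -0.88, and over the 17 libraries that were not choroid-rich it was -0.90. Both of these include animals 2415 and 2421, and without them the r within groups was -0.72.

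Rab3b against the interneuron sum had an r of 0.66 and a rho of 0.52 (adjusted permutation p = 0.0045 and 0.0283), and an r of 0.43 without the 2 farthest animals. Slc17a6 and Syt2 were higher where the 6 CA3 markers were lower, at an r of -0.63 each (rho -0.58 and -0.56, adjusted permutation p = 0.005 for each r and 0.0283 for each rho). Without the 2 farthest animals these were -0.48 and -0.41. The level of 11 thalamus markers, in whose region Slc17a6 is the main transporter, gave an r of 0.35 with Slc17a6 (rho 0.28, adjusted permutation p = 0.144 and 0.292). Sv2c against the dentate sum had an r of 0.68 but a rho of 0.32 (adjusted permutation p = 0.0142 and 0.206). Its r was 0.27 without the 2 farthest animals, and how far that relation rests on them was not tested. Over the 17 libraries not choroid-rich, which include both, its r was 0.77 and its rho 0.52 (adjusted permutation p = 0.0104 and 0.102). Sv2c against the interneuron sum had an r of -0.57 (rho -0.37, adjusted permutation p = 0.017 and 0.173), and -0.19 without the 2 farthest animals. All relations of Vamp1 missed the adjusted threshold.

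The same 4 lists were then set against all 30 members, an extension chosen after the data were seen. Of 120 relations, 36 had an adjusted permutation p under 0.05 by Pearson's r and 11 by both measures. Neither these nor the 20 relations above were computed for all genes tested. The counts are thus not shown to be particular to the members. The dentate list held 18 of the 36, with 5 members higher where dentate markers were higher (Syn3, Syt7, Doc2b, Cplx2 and Sv2c) and 13 lower (Syp, Syt1, Doc2a, Stx1a, Vamp2, Rab3a, Rab3b, Rims1, Rims2, Rims3, Cplx1, Sv2a and Sv2b). Cplx2 had an r of 0.76 and a rho of 0.72 (adjusted permutation p = 0.0006 and 0.0192) and Rims2 an r of -0.81 and a rho of -0.54 (adjusted 0.0012 and 0.0587). Leaving out the 2 animals farthest in each marker sum left 5 of 120 relations past the adjusted threshold by Pearson's r. Fewer animals and a narrower marker range also weaken a relation. How far each of the others rests on those animals was therefore not told by this count. The 5 were Rab3b, Rims3 and Cplx2 with the dentate sum, at an r of -0.70, -0.62 and 0.65, and Stx1a and Cplx1 with the interneuron sum, at 0.63 and 0.61. By both measures 0 of the 120 then passed. The dentate sum overlapped between groups, at 131 to 199, 126 to 198, 94.4 to 187 and 149 to 206 RPKM in the order above.

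**Figure D5:**
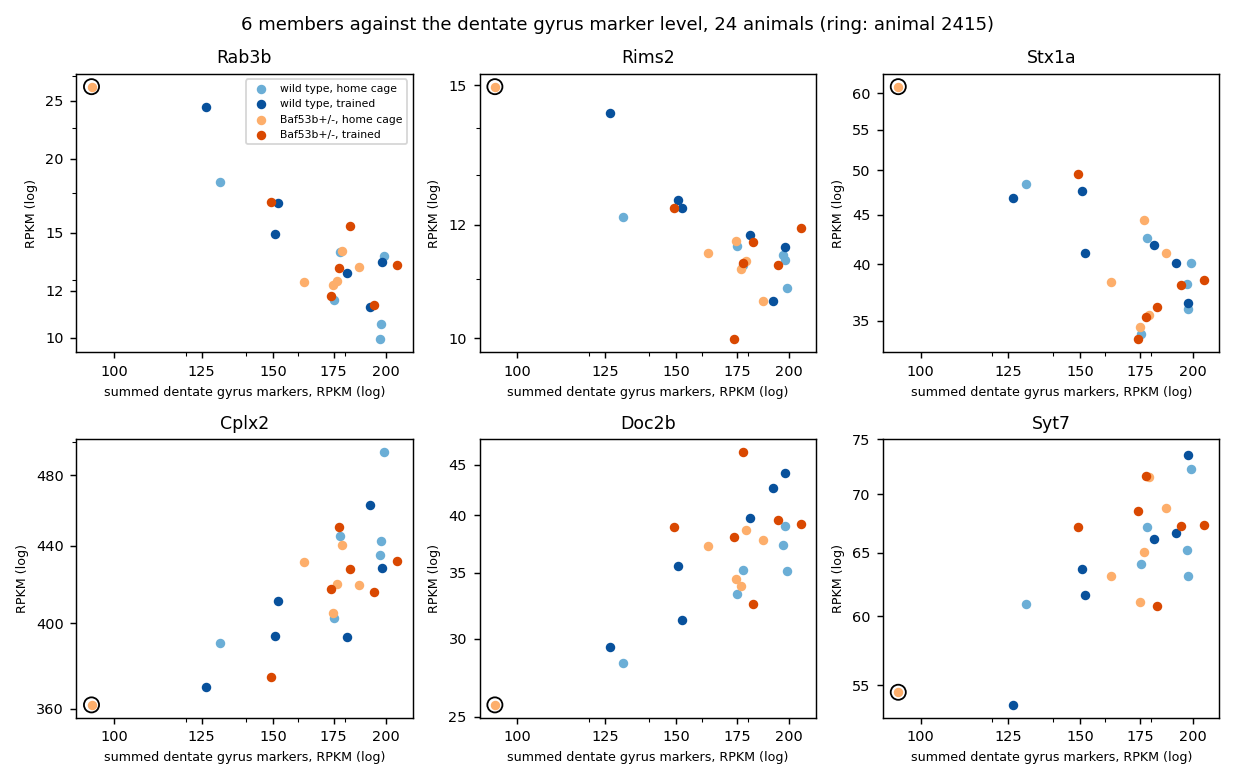
RPKM of 6 members against the summed RPKM of 10 dentate gyrus markers (both log axes), 1 point per animal, coloured by group, with a ring around animal 2415. Rab3b, Rims2 and Stx1a are highest at the low end of the dentate sum, where animal 2415 (94.4 RPKM) lies, and Cplx2, Doc2b and Syt7 are lowest or near lowest there.

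Animal 2415 was at an extreme of its group for many members. Against the range of the other 5 heterozygous home cage animals, it had 26.4 RPKM for Rab3b (others 12.3 to 13.96), 646 for Syp (others 518 to 545), 754 for Vamp2 (others 556 to 646) and 105 for Sv2b (others 74.3 to 81.6). It had 2.02 RPKM for Sv2c (others 3.34 to 4.999) and 25.7 for Doc2b (others 33.9 to 38.6). Without it the mean of Rab3b in that group went from 15.1 ± 5.6 (SD, n = 6) to 12.8 ± 0.71 RPKM (SD, n = 5), and 0 of 30 members passed limma in any of the 7 comparisons, as with it.

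The wider machinery was covered by 89 further genes in 5 lists, of which 86 passed the filter on low values: partners of the SNARE proteins, other calcium sensors, other active zone and Rab proteins, other vesicle proteins, and vesicle endocytosis. By limma, 0 of 86 passed for training in wild type, against 1.08% of all genes tested, and 0 in heterozygotes, against 1.03%. Likewise 0 passed for genotype in the home cage or after training (0.00807% of all genes each), averaged over conditions (0.0242%) or for the interaction (0%). At an unadjusted p under 0.05 there were 6 for training in wild type (11.1% of all genes) and 9 in heterozygotes (11.0%). For genotype there were 3 in the home cage (3.52%), 5 after training (3.69%) and 5 averaged over conditions (4.49%). For the interaction there were 3 (2.49%). Training averaged over genotypes called 2 of 86, both higher, against 4.17% of all genes tested in either direction and 3.26% higher. Snap29, a broadly expressed SNARE of endosomes and autophagosomes, rose by 0.11 ± 0.024 (log2, SE; limma adjusted p = 0.00788), from 9.85 ± 0.43 to 10.6 ± 0.35 RPKM in wild type and from 9.57 ± 0.36 to 10.4 ± 0.40 RPKM in heterozygotes (SD, n = 6 each). Itsn1, which encodes the endocytic scaffold intersectin, rose by 0.086 ± 0.023 (log2, SE; limma adjusted p = 0.0341), from 13.8 ± 0.50 to 14.4 ± 0.42 RPKM in wild type and from 13.2 ± 0.68 to 14.3 ± 0.41 RPKM in heterozygotes (SD, n = 6 each). Without the choroid-rich libraries neither passed, at 0.11 with an adjusted p of 0.0761 for Snap29 and 0.078 with an adjusted p of 0.238 for Itsn1. Stx4a, a plasma membrane SNARE named here after its values were seen, missed the threshold at 0.12 ± 0.036 (log2, SE; limma adjusted p = 0.0544).

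For genotype, all 86 genes of this wider set missed the adjusted threshold. Sh3gl2, which encodes the endocytic protein endophilin A1, was at -0.15 ± 0.056 after training (log2, SE; limma adjusted p = 0.993). For the interaction, Cacna1a, the pore of P/Q-type calcium channels, was at 0.16 ± 0.066 (log2, SE; limma adjusted p = 0.985).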

How the data were processed

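RNA of 24 dorsal hippocampus samples was sequenced, 1 library per mouse. Per the labels' protocols, libraries were made with TruSeq RNA v2 reagents, whose reads carry no strand, and sequenced single-end on an Illumina HiSeq. Per the submitters' processing notes, CASAVA 1.8.2, Bowtie 0.12.8 and the genome build mm9 were used. The authors deposited RPKM values for 19661 genes, 1 column per animal, and 0 columns were left unmapped. Not given in the sources used here are the annotation, the read total behind RPKM and how reads matching several genes were handled. Values of near-identical or overlapping genes are thus uncertain. The 12399 genes whose mean reached 1 RPKM were tested as log2(RPKM + 0.5) with limma 3.58.1 in R 4.3.3 (trend and robust), all 4 groups in a single model, 7 comparisons, Benjamini-Hochberg adjustment over all genes tested and an adjusted p under 0.05. Fold changes are on that log2 scale and understate those of low genes. Correlations used scipy 1.17.1, and their permutation p and the exact tests used numpy 2.4.6.

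Depth was estimated from the steps of low RPKM values in 925 single-exon genes. At the depth chosen, between 41.4% and 56.6% of values came within 0.05 of a whole read, against at most 8.5% at the median of the totals tried, so a count test was not run. Groups and animal numbers come from the sample titles, and replicates are separate animals. The sequencing pool of each animal is not given, so no batch was fitted. Members and lists were chosen with earlier results of these data known. All 30 members are named, and of the wider machinery those that passed, otherwise up to 4 per comparison by p. A gene of the wider machinery, though counted, is not reported here by name. Of 4 blood markers 3 were not matched, and blood was not analysed here. Other marker lists (striatum, oligodendrocyte, astrocyte, microglia, endothelial) had no gene at 0 in all libraries. Alternatives were pseudocounts, filters, scalings, moderation, array weights, covariates and libraries left out. The fit was tested on simulated data.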

Additional observations from a re-analysis of the deposited data

Results flagged for a closer look

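In 120 sets of 6 animals (30 genes in 4 groups), 14 had an animal whose gap to its nearest neighbour was large for the range of the set. Independent normal values meet that rule in about 5% of sets. The share of sets that meet it over all genes tested was not counted, so 14 is not shown to be particular to these members. Animal 2415, a heterozygous home cage mouse with the lowest dentate marker sum, accounts for 8 of the 14. It was highest for Syp (646 RPKM, nearest 545), Doc2a (9.69, nearest 6.96), Rab3a (431.5, nearest 376), Rab3b (26.4, nearest 13.96), Rims1 (45.5, nearest 37.5), Rims2 (14.97, nearest 11.7) and Sv2b (105, nearest 81.6). It was lowest for Doc2b (25.7 RPKM, nearest 33.9). These 8 values come from 1 library and are not separate observations. In wild-type home cage animals, animal 2418 was lowest for Syn3 (5.44 RPKM, nearest 6.53) and highest for Vamp1 (47.6, nearest 39.1), animal 2430 was highest for Doc2a (7.93, nearest 7.03) and animal 2402 for Pclo (20.04, nearest 15.6). In trained heterozygotes, animal 2416 was highest for Stx1a (49.6 RPKM, nearest 38.6) and animal 2414 for Vamp2 (636, nearest 579).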

How the results depend on the processing

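In every alternative run, 0 members passed in each of the 7 comparisons, with 1 exception: for training averaged over genotypes the count was 0 to 1 when animals were left out in turn, since Slc17a7 passed without wild-type home cage animal 2425. The number of all genes called moved more. For training in wild type (134) it was 68 without the choroid-rich libraries, 75 with only the groups compared and 83 with the filter at 5 RPKM. For training in heterozygotes (128) it was 42, 84 and 84 under the same settings, and for the average over genotypes (517) it was 235 without the choroid-rich libraries and 339 with the filter. Genotype called 1 to 2 genes in each condition and 1 to 5 averaged over conditions. Itsn1 lost its call in 13 alternatives (adjusted p up to 0.238) and Snap29 in 1. The filter at 5 RPKM left 26 members. Of the marker relations, 6 of 20 passed by Pearson's r with all libraries and without the choroid-rich ones. With all 30 members, chosen after seeing the data, 36 of 120 passed by Pearson's r, and 5 without the 2 farthest animals. No paired analysis was possible because animal numbers are unique to 1 group. Depth gives a counting error of 6.64% for a 2 kb gene at 4 RPKM in the shallowest library.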
